A study of Mus musculus with 36 samples.

Results

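Mature microRNAs (miRNAs) cut from hairpins that lie inside the Hox gene clusters were followed here in mice, in epididymal white adipose tissue (eWAT) and in liver. They were taken by name from the deposited count table, and where a name had several lines the line with the highest total was used. These 7 of the 1966 mature miRNAs named there were mmu-miR-10a-5p, mmu-miR-10a-3p, mmu-miR-10b-5p, mmu-miR-10b-3p, mmu-miR-196a-5p, mmu-miR-196b-5p and mmu-miR-615-3p. Small RNA had been sequenced from 18 eWAT and 18 liver samples, with 6 libraries in each of the diet groups HFLF, HF and LF of each tissue. All samples came from C57BL/6 males of genotype WT and generation F1, aged 24 weeks, which had eaten chow until 6 weeks of age and then a set diet for 18 weeks. The diet tags of the groups read HFLFD, HFD and LFD, while the treatment protocol names LFD for all 36 samples. The labels thus do not settle if the mouse itself or its father ate the diet named, and the groups are called by name only. That replicates were separate mice is stated by no label other than the titles, and p-values therefore reflect only how these libraries varied. The titles use the same replicate numbers in both tissues, and whether equal numbers mean the same mouse is not stated. The main tests treated the libraries as unpaired.

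Hox genes are transcription factors that set position along the body axis, and their clusters also carry miRNA genes that are transcribed in the same regional pattern. A hairpin is cut into a 5p and a 3p arm, and one arm usually is kept as the guide that pairs with target mRNAs through its seed, bases 2 to 8. Members of the miR-10 family lie near the Hox4 genes and those of the miR-196 family near the Hox9 and Hox10 genes. In mice miR-196 directs cleavage of Hoxb8 mRNA, and miR-196a is known to repress Hoxc8 and to favour brown-like adipocytes in white fat. miR-615 lies in an intron of Hoxc5.

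The mature sequences are shown because the family split rests on the seed and the split between a and b rests on a single base outside it. They are from RefSeq, with positions on GRCm38.p6, and the seed is in capitals.
mmu-miR-10a-5p, chr11:96317186-96317208, plus strand: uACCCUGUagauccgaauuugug
mmu-miR-10b-5p, chr2:74726074-74726096, plus strand: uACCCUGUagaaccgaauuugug
mmu-miR-196a-5p, chr11:96265187-96265208 and chr15:102973365-102973386, both plus strand: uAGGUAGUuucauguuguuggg
mmu-miR-196b-5p, chr6:52230129-52230150, minus strand: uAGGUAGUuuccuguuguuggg
mmu-miR-615-3p, chr15:103014969-103014990, plus strand: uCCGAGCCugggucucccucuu
mmu-miR-10a-3p, chr11:96317227-96317248, plus strand: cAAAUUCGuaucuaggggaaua
mmu-miR-10b-3p, chr2:74726114-74726135, plus strand: cAGAUUCGauucuaggggaaua
mmu-miR-100-5p, chr9:41531437-41531458, plus strand: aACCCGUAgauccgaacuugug
mmu-let-7a-5p, chr13:48538239-48538260, minus strand: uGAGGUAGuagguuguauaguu

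The 5p arms of miR-10a and miR-10b differed by U12A, counted from 1 at the 5′ end with the base of miR-10a first. Those of miR-196a and miR-196b differed by A12C. The 3p arms of miR-10a and miR-10b differed at 3 positions (A3G, U9A, A10U), the first of them inside the seed, so they do not share one. Among the RefSeq mouse miRNAs, the seed of miR-10a-5p was held by 2 mature sequences, itself and miR-10b-5p, and the seed of miR-196a-5p by itself and miR-196b-5p. The last 2 sequences are relatives outside the Hox clusters: miR-100-5p, whose seed is shared with miR-99a-5p and miR-99b-5p, has a run of 11 bases in common with miR-10a-5p, and let-7a-5p holds the 7 seed letters of miR-196a-5p shifted by 1 base. Reads of sequences that differ by 1 base can be moved from one to the other by the mismatch setting of the aligner, a setting not given in the sources used here, and the split between a and b is uncertain to that extent.

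In the GENCODE annotation of GRCm38, Mir10a lay 0.993 kb from Hoxb4 on chromosome 11, and Mir10b lay in introns of Hoxd3 and Hoxd4 on chromosome 2. miR-196a-5p had 2 sources, Mir196a-1 on chromosome 11, 6.19 kb from Hoxb9, and Mir196a-2 on chromosome 15, 1.46 kb from Hoxc10 and inside an intron of an annotated Hoxc5 transcript. Mir196b overlapped an annotated exon of Hoxa9 on chromosome 6, 1.03 kb from Hoxa10. Mir615 lay in a Hoxc5 intron on chromosome 15. The 7 members thus came from all 4 Hox clusters, with miR-196a fed from a pair of them.

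The eWAT libraries held 9066683 to 17714156 counts and the liver libraries 7866583 to 18832842, summed over the line used per miRNA. The members together made up 4.19% to 8.65% (median 5.38%) of the counts of an eWAT library and 0.181% to 0.652% (median 0.494%) of those of a liver library, with 95% Wilson intervals no wider than 0.0355 percentage points, which cover counting error only. The labelled tissues carried their markers, since the summed level of 5 hepatocyte miRNAs was 518.3 to 3597 CPM in eWAT and 613300 to 991800 CPM in liver, and that of 5 adipocyte and mesenchymal miRNAs was 81680 to 168600 CPM in eWAT and 12580 to 29220 CPM in liver. CPM here are counts scaled to library size after TMM normalization over all 36 libraries. Of these, 4 libraries stood apart from the rest. eWAT LF replicates 1 and 4 held 11160 and 13510 CPM of the 5 epithelial miR-200 family markers. The other 16 eWAT libraries held 39.96 to 196.4 CPM. Liver LF replicate 4 and HF replicate 6 were absent from the log2 table that the authors deposited for liver. They had the fewest miRNAs with a count of all livers, 316 and 368, against 540 to 633 in the other 16. They also had the lowest miR-10a-5p of all livers, so miR-10a-5p results without them are not independent of that choice. Values without the 4 libraries are given for part of the results below.

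miR-10b-5p was the most abundant member in eWAT and a minor miRNA in liver. Its lowest, median and highest levels in eWAT were 18518, 23449 and 27854 CPM in HFLF, 19295, 21327 and 25237 CPM in HF, and 16861, 22489 and 31169 CPM in LF. In liver the corresponding levels were 11.997, 14.8 and 26.3 CPM in HFLF, 7.89, 15.9 and 19.7 CPM in HF, and 1.64, 23.4 and 42.0 CPM in LF. Every eWAT library lay far above every liver library. Pooled over the libraries of a group, the level in eWAT was 1447 times that in liver in HFLF, 1480 times in HF and 914 times in LF. By mean level it held rank 9 of the 1314 miRNAs with a count in eWAT and rank 208 of the 1056 in liver. The liver value was low but countable, with 8 to 351 counts per library and 2783 counts in all.

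miR-10a-5p was abundant in both tissues, at rank 11 in eWAT and rank 23 in liver. The lowest, median and highest eWAT levels were 11927, 14382 and 17257 CPM in HFLF, 11431, 13049 and 14788 CPM in HF, and 10944, 14111 and 23705 CPM in LF. Liver levels were 5670, 7444 and 8803 CPM in HFLF, 2885, 7616 and 8638 CPM in HF, and 3100, 7797 and 8143 CPM in LF. The tissues did not overlap in any diet group, but the pooled difference was only 1.98-fold in HFLF, 1.89-fold in HF and 2.22-fold in LF. Without liver HF replicate 6 the HF fold was 1.64. The LF fold was 2.03 without eWAT LF replicate 1, 2.08 without eWAT LF replicate 4 and 2.07 without liver LF replicate 4. The lowest livers were HF replicate 6 and LF replicate 4, at 2885 and 3100 CPM, and the highest eWAT libraries were LF replicates 1 and 4, the pair rich in epithelial miRNAs, at 21608 and 23705 CPM.

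The 3p arms, which are usually discarded when the 5p arm is the guide, were rarer. miR-10a-3p ranged from 56.5 to 126 CPM in eWAT and from 30.4 to 71.7 CPM in liver, with overlap between the tissues in HF and LF and none in HFLF. miR-10b-3p ranged from 70.4 to 140 CPM in eWAT and had 0 counts in all 18 livers. A floor was set at 3 counts over the summed TMM-scaled library sizes of the liver group. Against it, the eWAT level of miR-10b-3p was at least 1864-fold higher in HFLF, at least 2370-fold in HF and at least 1504-fold in LF.

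miR-615-3p, a Hoxc5 intron product, was even across eWAT, with lowest, median and highest levels of 106, 136 and 155 CPM in HFLF, 98.7, 126 and 160 CPM in HF, and 75.6, 127 and 145 CPM in LF. In liver it had 9 counts in 2 HFLF libraries, 33 counts in 3 HF libraries and 0 counts in LF. Its pooled eWAT level was 764 times that of liver in HFLF and 242 times in HF, and at least 1666-fold higher in LF. Liver HFLF replicate 2 held 8 of the 9 counts and HF replicate 5 held 20 of the 33. Without HFLF replicate 2 the HFLF ratio was 5874 on 1 liver count, with a 95% exact Poisson interval of 1054 to 232000 that covers counting error only, and without HF replicate 5 the HF ratio was 508. The other arm of its hairpin, miR-615-5p, had 157 counts over all libraries, none of them in liver.

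miR-196a-5p and miR-196b-5p were also nearly confined to eWAT in these libraries. In liver miR-196a-5p had 26 counts, all in 2 LF libraries, and miR-196b-5p had 11 counts in HFLF, 23 in HF and 27 in LF. Pooled levels of miR-196a-5p in eWAT were at least 1060-fold higher than in liver in HFLF, at least 2522-fold in HF and 211 times as high in LF. For miR-196b-5p the pooled ratios of eWAT to liver were 159, 174 and 130 in HFLF, HF and LF. Each of these folds rested largely on 1 eWAT library. Without eWAT HFLF replicate 4, HF replicate 1 or LF replicate 4, miR-196a-5p was at least 299.8-fold higher in HFLF, at least 782.9-fold in HF and 60.8 times as high in LF, and the ratios of miR-196b-5p were 32.2, 56.5 and 21.3. Single livers moved them the other way: without liver LF replicate 2 miR-196a-5p was 431 times as high in LF, and without liver HFLF replicate 6, HF replicate 4 or LF replicate 6 miR-196b-5p was at least 456-fold higher in HFLF, 373 times as high in HF and 543 times in LF.

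**Figure D1:**
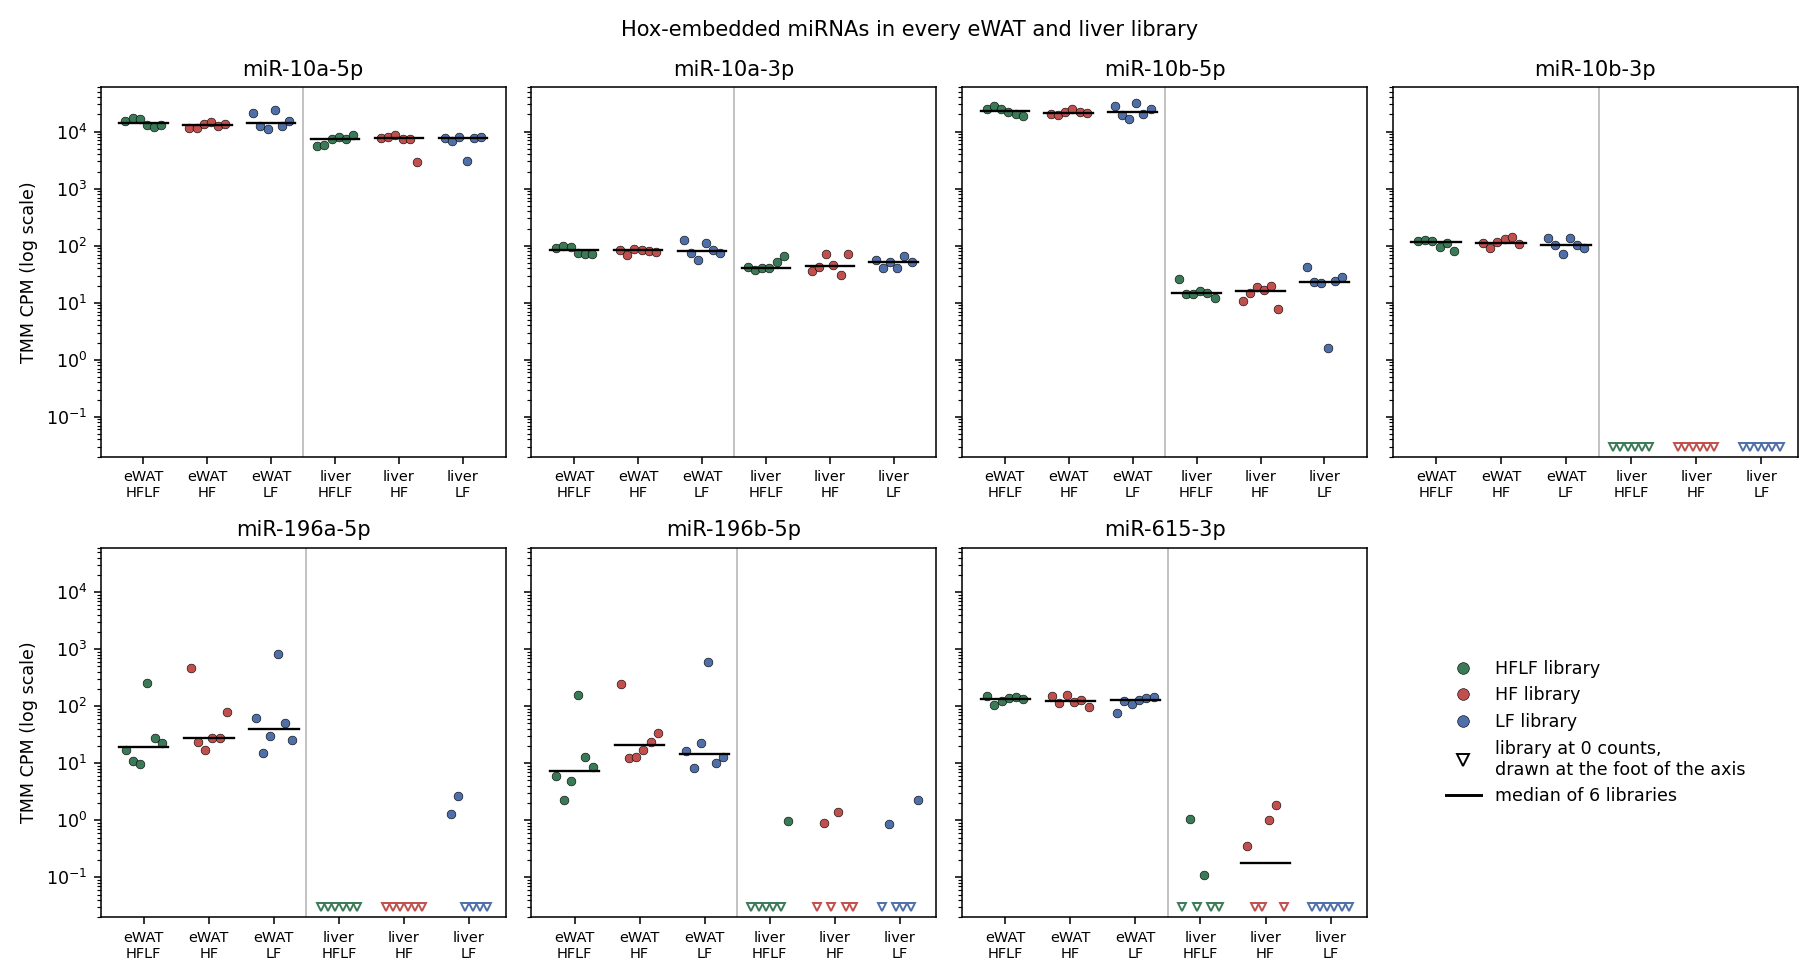
Level of each of the 7 members in every library, as TMM-scaled CPM on a log axis, with 1 point per library, a bar at the median of 6 and open triangles at the foot for libraries with 0 counts. miR-10a is present in both tissues, miR-10b-5p lies at 16861 to 31169 CPM in eWAT and at 1.64 to 42.0 CPM in liver, and miR-10b-3p is at 0 in all 18 livers.

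In the edgeR quasi-likelihood test over all 36 libraries, with adjustment over all miRNAs tested, all 7 members were called higher in eWAT (adjusted p under 0.05) in each diet group. Of the 681 miRNAs tested, 29.4% were called higher in eWAT in HFLF, 32.0% in HF and 31.4% in LF. miR-10b-3p, miR-196a-5p, miR-196b-5p and miR-615-3p passed the filter on low counts through their eWAT values alone and so had to differ. The 3 members that also passed it among the livers, miR-10a-5p, miR-10a-3p and miR-10b-5p, were tested on counts in both tissues. For edgeR fold changes, ± gives the change divided by the square root of its F, which only approximates a standard error. Each group had 6 libraries, and the highest adjusted p of miR-10b-5p was 1.24432e-19. For miR-10b-5p the log2 fold change was 10.47 ± 0.46 in HFLF, 10.52 ± 0.46 in HF and 9.96 ± 0.45 in LF. For miR-10a-5p it was 1.02 ± 0.21, 0.88 ± 0.21 and 1.22 ± 0.21 in HFLF, HF and LF, with adjusted p-values of 0.000157436, 0.000832842 and 1.45869e-05. Leaving out single libraries gave 0.84 to 1.09 in HFLF, 0.66 to 0.93 in HF and 0.99 to 1.33 in LF for miR-10a-5p. For miR-10a-3p the log2 fold change was 0.86 ± 0.21, 0.71 ± 0.21 and 0.78 ± 0.21 in HFLF, HF and LF, with a highest adjusted p of 0.00504409 in HF. That HF call was lost when any 1 of 5 libraries was left out (eWAT HF replicates 3, 5 and 6 and liver HF replicates 1 and 5), with log2 fold changes down to 0.3788.

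The small miR-10a differences have to be read against the whole table. The median log2 fold change of all 681 miRNAs was 0.27 in HFLF, 0.48 in HF and 0.60 in LF. With library totals and no TMM factor these medians became 1.39, 1.66 and 1.87. On that scale miR-10a-5p had 2.16, 2.04 and 2.495 and miR-10a-3p 1.9998, 1.86 and 2.06. Such a change of scale moves all miRNAs nearly alike. On either scale both arms lay above the median in each diet group, and miR-10a-3p in HF and LF by about its standard error. The same change of scaling moved the calls over all miRNAs to 368 higher and 58 lower in HFLF, 389 and 53 in HF, and 422 and 40 in LF. With TMM they were 200 and 131 in HFLF, 218 and 120 in HF, and 214 and 109 in LF. In bulk tissue, fewer cells that make a miRNA and less of it per cell cannot be told apart.

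**Figure D2:**
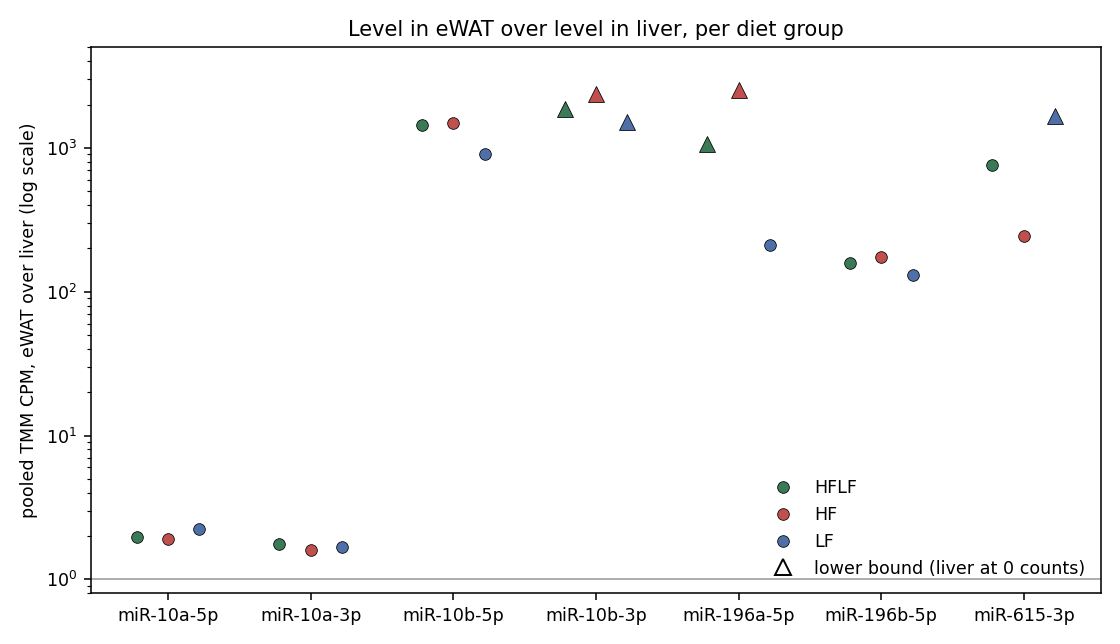
Pooled level in eWAT over pooled level in liver for each member and diet group, on a log axis, with triangles for lower bounds where the liver group had 0 counts. The miR-10a arms lie between 1.6 and 2.22, and the other 5 members lie between 130 and 2522.

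Of the relatives outside the Hox clusters, listed by sequence, miR-100-5p and miR-99b-5p were also higher in eWAT. The log2 fold change of miR-100-5p was 1.24 ± 0.29 in HFLF, 1.29 ± 0.29 in HF and 1.36 ± 0.29 in LF, with a highest adjusted p of 0.000500548, and that of miR-99b-5p was 1.34 ± 0.31, 1.40 ± 0.31 and 1.07 ± 0.31, with a highest adjusted p of 0.00490389. miR-99a-5p had 0.36 ± 0.29, 0.40 ± 0.29 and 0.66 ± 0.29 and did not pass (lowest adjusted p 0.0545568). let-7a-5p, a broadly expressed regulator of growth and differentiation, was lower in eWAT, by log2 changes of -0.70 ± 0.14, -0.74 ± 0.14 and -1.07 ± 0.14 (highest adjusted p 0.000120131). In size these changes lie beside that of miR-10a-5p, and differences between miRNAs were not tested.

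The ratio of miR-10b-5p to miR-10a-5p within a library does not depend on its total. In eWAT the lowest, median and highest ratios were 1.39, 1.61 and 1.70 in HFLF, 1.56, 1.68 and 1.80 in HF, and 1.303, 1.53 and 1.64 in LF. In liver they were 0.00137, 0.00200 and 0.00465 in HFLF, 0.00138, 0.00223 and 0.00275 in HF, and 0.000561, 0.00323 and 0.00544 in LF. miR-10b-5p thus exceeded miR-10a-5p in all 18 eWAT libraries and was at most 0.00544 of it in all 18 livers. The log2 difference between the tissues was 9.47 ± 0.24 in HFLF, 9.62 ± 0.16 in HF and 9.15 ± 0.47 in LF (SE, n = 6 each). Each had a 2-sided exact permutation p of 0.0021645, the smallest that 6 against 6 libraries can give, and 0.017316 after adjustment over the 24 ratio comparisons made. These 3 were the only ones of the 24 to pass.

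The low liver level of miR-10b-5p came without its partner arm. In eWAT miR-10b had 8293225 counts of 5p and 40353 of 3p, a ratio of 205.5. At that ratio the 2783 liver counts of miR-10b-5p would go with 13.5 counts of miR-10b-3p, and 0 were seen. They amounted to 0.254% of the 1096901 liver counts of miR-10a-5p, from which miR-10b-5p differs by 1 base. Whether these counts are miR-10b or reads of miR-10a was not tested.

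For miR-10a, whose arms were both countable in liver, the ratio of 5p to 3p overlapped between the tissues. Medians were 173, 162.5 and 183 in the HFLF, HF and LF groups of eWAT, and 148, 175 and 146 in those of liver. The livers that stood apart had ratios of 40.2 (HF replicate 6) and 77.5 (LF replicate 4), while the other 16 livers lay between 119.5 and 240.4. The largest tissue difference was that in LF, 0.48 ± 0.18 on the log2 scale, with an exact permutation p of 0.012987 (n = 6 each) that did not pass after adjustment (0.062338). It was 0.33 without liver LF replicate 4 and 0.29 without all 4 libraries that stood apart (adjusted exact permutation p 0.09524 and 0.17143), and without eWAT LF replicate 5 it was 0.54 and passed (0.031169).

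**Figure D3:**
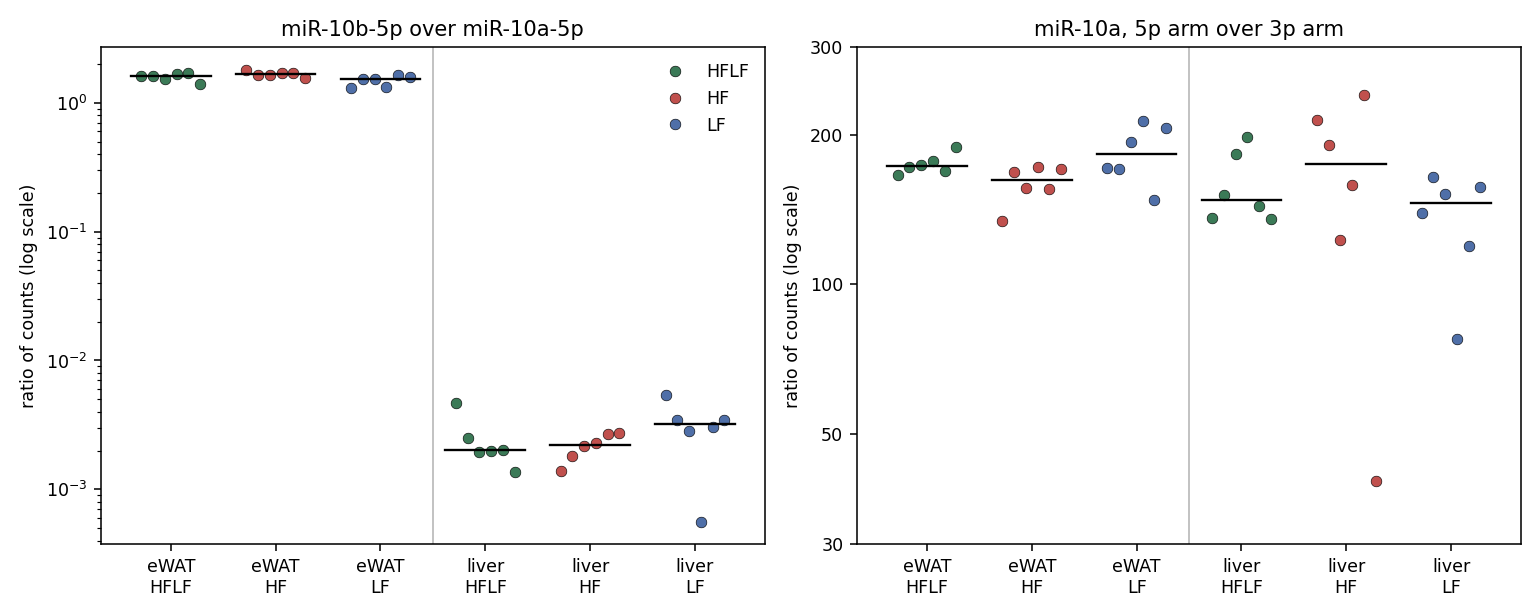
Ratio of miR-10b-5p to miR-10a-5p counts (left) and of the 5p to the 3p arm of miR-10a (right) in every library, on log axes, with 1 point per library and a bar at the median of 6. On the left eWAT lies between 1.303 and 1.80 and liver between 0.000561 and 0.00544. On the right the tissues overlap, and the 2 lowest points are liver HF replicate 6 at 40.2 and liver LF replicate 4 at 77.5.

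The miR-196 pair had 3 eWAT libraries far above the rest, 1 in each diet group. miR-196a-5p was at 260 CPM in HFLF replicate 4, 470 CPM in HF replicate 1 and 813 CPM in LF replicate 4. The other 15 eWAT libraries ran from 9.75 to 79.6 CPM with a median of 25.7. miR-196b-5p, which comes from another chromosome, was at 156, 244 and 599 CPM in the same 3 libraries. It was at 2.25 to 33.8 CPM (median 12.7) in the other 15. The pair differs by 1 base, and whether reads of one were counted as the other was not tested. miR-615-3p was at 138, 151 and 131 CPM in these 3 libraries, inside the 75.6 to 160 CPM of the other 15. The miR-10 arms were inside the range of the other 15 in HFLF replicate 4 and HF replicate 1, while LF replicate 4 had the highest miR-10a-5p and miR-10b-5p of all eWAT libraries, at 23705 and 31169 CPM.

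Of the marker lists, that of striated muscle was in the upper part of the eWAT range in all 3 libraries, and others were in part of them. Its miRNAs (3 of 3 detected) summed to 1456, 2359 and 2346 CPM in HFLF replicate 4, HF replicate 1 and LF replicate 4, against 306.6 to 2463 CPM (median 815.3) in the other 15. Among those 15 only LF replicate 1 was above any of the 3, and the next was HF replicate 5 at 1439 CPM. The 5 epithelial markers, all detected, lay between 95.05 and 13510 CPM in the 3 and between 39.96 and 11160 CPM in the others. For the 7 germ cell and epididymis markers the ranges were 18.8 to 265 CPM and 11.04 to 1779 CPM. Erythroid markers summed to 5782 CPM in HF replicate 1 and 5756 CPM in HFLF replicate 4, but to 2157 CPM in LF replicate 4. The other 15 held 1730 to 5025 CPM of them. Adipocyte and mesenchymal markers were highest of all eWAT libraries in HF replicate 1, at 168600 CPM, and LF replicate 4 held 104300 CPM. The part of any of these cell types in the miR-196 values was not tested.

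The passenger arms do not place the source of miR-196a. miR-196a-1-3p had 65 counts in eWAT LF replicate 1, 3 in HF replicate 1 and 0 in every other library, LF replicate 4 included, which held the most miR-196a-5p (11951 counts). miR-196a-2-3p had 0 counts throughout and miR-196b-3p had 2. LF replicate 1, where the 3p arm of Mir196a-1 was seen, had 1563 counts of miR-196a-5p.

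Across the 18 eWAT libraries the miR-10 arms varied together. On the log2 CPM scale, with TMM factors from that tissue alone, miR-10a-5p and miR-10b-5p had a Pearson r of 0.92 and a Spearman rho of 0.86, with permutation p-values adjusted over 24 pairs of 8e-05 and 0.00024. Without the 2 libraries farthest from the median, which were LF replicates 1 and 4, r was 0.89, and with group means subtracted it was 0.94. miR-10a-3p with miR-10b-3p gave r of 0.82 and rho of 0.84 (adjusted permutation p 0.000144 and 0.0003), and 0.74 without the 2 farthest libraries. miR-10a-5p with miR-10b-3p, at r of 0.59, rested on the 2 epithelium-rich libraries and was 0.44 without them (adjusted permutation p 0.2373). These values share the scaling of each library. The 5p arms of miR-10a and miR-10b also differ by only 1 base, and whether reads moved between them was not tested.

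Since the 3 high libraries form a cluster of their own, relations with miR-196 were taken over the other 15 eWAT libraries, a choice made after the values were seen. There miR-196a-5p and miR-196b-5p still rose and fell together, with r of 0.76 and rho of 0.80 (adjusted permutation p 0.00496 and 0.002736). Without the 2 farthest libraries r was 0.63. Whether reads moved between these sequences, which differ by 1 base, was not tested. None of the 8 pairs of a miR-10 arm with a miR-196 member passed, with r between -0.41 and -0.0022 and a lowest adjusted permutation p of 0.2584. miR-615-3p passed with no other member, with r from -0.37 to -0.15 against the miR-10 arms (18 libraries) and -0.43 and -0.19 against miR-196a-5p and miR-196b-5p (15 libraries). In liver, miR-10a-5p and miR-10b-5p had r of 0.59 over 18 libraries and -0.16 without LF replicate 4 and HF replicate 6, so the relation rests on those libraries.

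**Figure D4:**
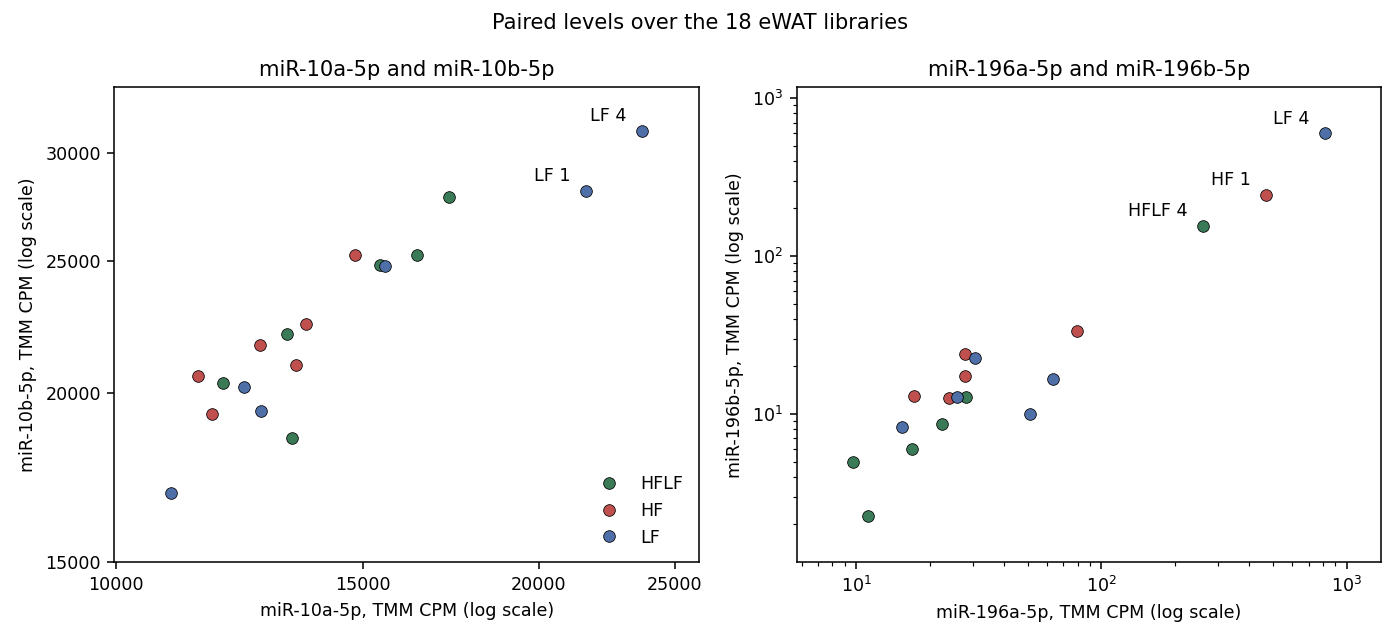
Levels of miR-10a-5p and miR-10b-5p (left) and of miR-196a-5p and miR-196b-5p (right) in the 18 eWAT libraries, as TMM-scaled CPM on log axes, with 1 point per library coloured by diet group. The miR-10 points form a single band with LF replicates 1 and 4 at its top, and the miR-196 points hold 3 libraries at 260 to 813 CPM of miR-196a-5p apart from 15 at 9.75 to 79.6 CPM.

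By the highest Pearson r over the 18 libraries of a tissue, as a description, the non-member nearest to both miR-196 miRNAs in eWAT was miR-9-5p, best known from neural tissue (r of 0.84 with miR-196a-5p and 0.82 with miR-196b-5p). It was at 54.0, 82.8 and 78.1 CPM in the 3 high libraries HFLF replicate 4, HF replicate 1 and LF replicate 4. Without these 3 the r was 0.30 and 0.23. miR-10a-5p in eWAT was nearest to 3 epithelial miRNAs, miR-200a-3p, miR-200b-3p and miR-141-3p (r of 0.81, 0.80 and 0.80), which fell to 0.15, 0.13 and 0.051 without LF replicates 1 and 4. miR-615-3p was nearest to miR-3068-3p (r of 0.79, and 0.59 without those libraries). In liver the nearest to miR-10a-5p was its relative miR-100-5p, with r of 0.95, and 0.75 without LF replicate 4 and HF replicate 6.

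Between the diet groups no member was called in either tissue. In eWAT all 7 members were fitted, and 0 of 7 passed in HFLF minus LF, HF minus LF or HFLF minus HF, where 0% of the 638 miRNAs tested were called. At an unadjusted p under 0.05 there were 98, 49 and 21 miRNAs, none of them a member. In liver miR-10a-5p, miR-10a-3p and miR-10b-5p were fitted, and 0 of 3 passed in any of the comparisons, where 0% of the 478 miRNAs were called (14, 16 and 5 at an unadjusted p under 0.05). A p that misses the threshold does not show that the groups are alike.

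For the abundant members in eWAT no difference between the diet groups was called, which does not show equal levels. From the mean levels, miR-10a-5p averaged 14597 ± 2077 CPM in HFLF, 12949 ± 1268 CPM in HF and 16135 ± 5310 CPM in LF (SD, n = 6 each). The log2 fold change was -0.15 ± 0.16 for HFLF over LF and -0.33 ± 0.16 for HF over LF, with adjusted p-values of 0.737257 and 0.676018. Without the 4 libraries that stood apart these became 0.17 and 0.012, so the lower HF and HFLF values rested on LF replicates 1 and 4. miR-10b-5p had -0.02 ± 0.13 and -0.12 ± 0.13, and 0.18 and 0.099 without them. miR-10a-3p, miR-10b-3p and miR-615-3p lay between -0.12 and 0.15 in the 9 eWAT comparisons, with standard errors of 0.15 to 0.16.

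For miR-196 the 3 high libraries decided the sign. miR-196a-5p had log2 fold changes of -1.54 ± 1.25 for HFLF over LF, -0.66 ± 1.22 for HF over LF and -0.88 ± 1.23 for HFLF over HF, and miR-196b-5p had -1.84 ± 1.39, -0.998 ± 1.36 and -0.84 ± 1.36. Leaving out LF replicate 4, the highest library, alone turned HF over LF to 1.46 for miR-196a-5p and 1.96 for miR-196b-5p, and HFLF over LF to 0.62 and 1.15. Leaving out HF replicate 1 turned HFLF over HF to 0.71 and 0.65. Medians were 19.7 CPM in HFLF, 27.8 CPM in HF and 40.8 CPM in LF for miR-196a-5p, and 16.95, 27.7 and 30.6 CPM without the highest library of each group. For miR-196b-5p they were 7.30, 20.7 and 14.7 CPM, and 5.99, 17.4 and 12.7 CPM without it. The orders of the diet groups by median differ between the pair.

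Of the 3 members fitted in liver, miR-10b-5p had the largest diet difference. miR-615-3p, not fitted there, had 33 counts in HF and 0 in LF, as given above. The log2 fold change of miR-10b-5p was -0.45 ± 0.43 for HFLF over LF and -0.59 ± 0.43 for HF over LF, with adjusted p-values of 0.989238 and 0.997817. The lowest of the LF livers, replicate 4 with 8 counts, is one of the libraries that stood apart, and without those the differences were -0.70 and -0.77 (adjusted p 0.583197 and 0.538952). The ratio of miR-10b-5p to miR-10a-5p for HF over LF was -0.29 ± 0.49 on the log2 scale (exact permutation p 0.60173, n = 6 each). Without LF replicate 4 it was -0.73 and passed, with an exact permutation p of 0.038961 adjusted over the 24 comparisons. Without all 4 libraries that stood apart it was -0.81, with 0.047619 by the same test and 5 libraries in each group. The arms of miR-10a lay between -0.26 and 0.08 in the 6 liver comparisons.

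In eWAT the same ratio was higher by 0.18 ± 0.06 in HF than in LF, with an exact permutation p of 0.010823 (n = 6 each) that was 0.062338 after adjustment. Without LF replicate 5 it was 0.21 and passed (adjusted exact permutation p 0.031169), and without LF replicates 1 and 4 it was 0.091 (0.15007). HFLF over LF was 0.097 ± 0.072 and HFLF over HF -0.082 ± 0.051, neither past the threshold.

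**Figure D5:**
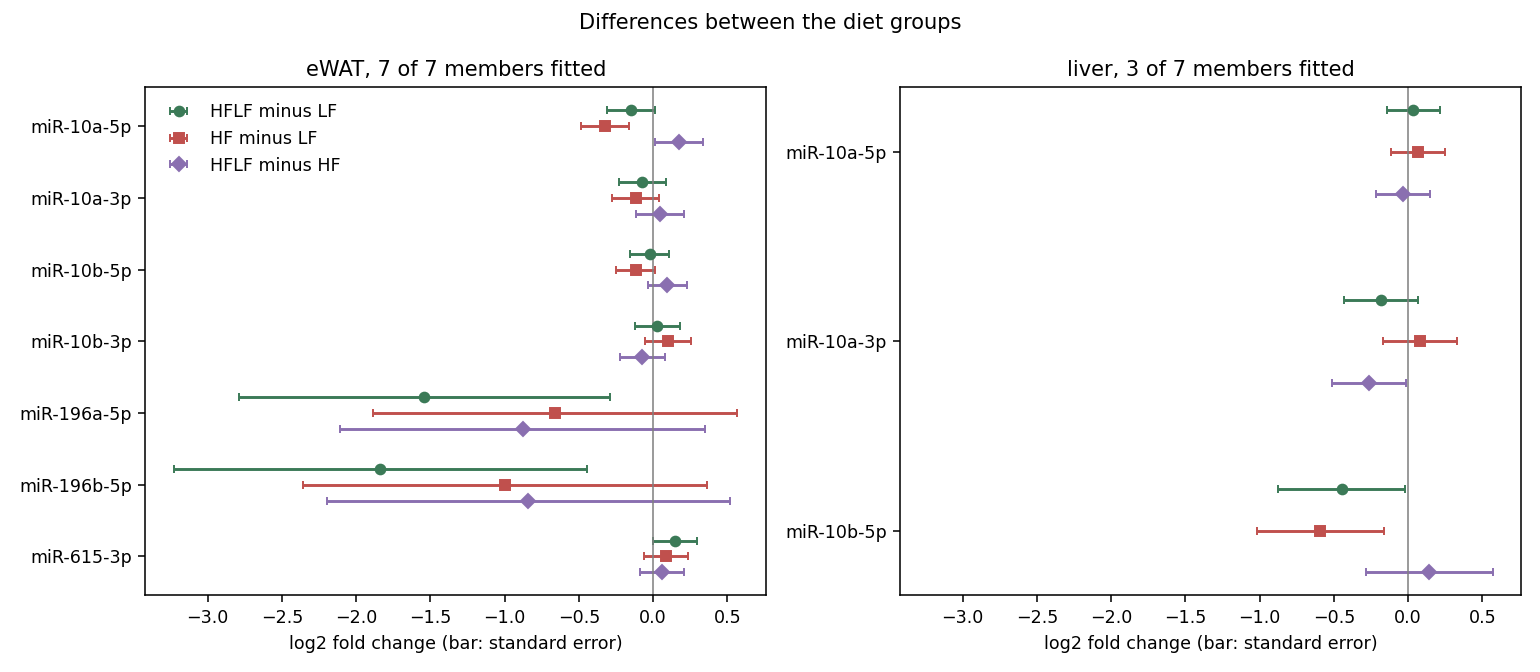
Fitted log2 fold change with its approximate standard error (from the F test) for HFLF minus LF, HF minus LF and HFLF minus HF. The 7 members fitted in eWAT are on the left and the 3 fitted in liver on the right. The miR-10 arms and miR-615-3p stay between -0.33 and 0.18 in eWAT, while miR-196a-5p reaches -1.54 and miR-196b-5p -1.84, with standard errors above 1.2.

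The difference between the tissues was also compared across diets. For HF over LF, eWAT minus liver, 0 members and 2.50% of the 681 miRNAs were called, and for HFLF over LF 0 members and 1.91%. miR-10a-5p had -0.34 ± 0.30 and -0.20 ± 0.30 on the log2 scale, and miR-10b-5p 0.56 ± 0.44 and 0.51 ± 0.44, for HF and HFLF in that order (lowest adjusted p 0.764266). Members at or near 0 counts in a liver group give no usable value here.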

How the data were processed

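The values used are read counts per mature miRNA and precursor, as deposited by the authors. The submitters' processing notes name cutadapt, Bowtie and GRCm38.p6, with versions and settings not given in the sources used here. Besides these, the authors deposited CPM columns (the counts scaled to the column total) and log2 tables per tissue, which hold 6 members in eWAT and 2 in liver. Neither was tested. Per the labels' protocols, 1 ug of total RNA entered the NEXTFLEX kit.

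The highest line per name was used, and tests on counts used edgeR 4.0.16 under R 4.3.3 (TMM, filterByExpr with a minimum count of 10 and total of 15, robust quasi-likelihood F test, Benjamini-Hochberg adjustment over all miRNAs tested, threshold 0.05). Tissue and interaction contrasts used all 36 libraries, and diet contrasts the 18 of 1 tissue. The ± of edgeR fold changes came from the F of the test and need not combine across contrasts. For miR-10b-5p it was 0.44 for HF over LF, eWAT minus liver, below the 0.46 in HF and 0.45 in LF. DESeq2 1.42.0 was an alternative. Ratios used counts plus 0.5 and exact permutation of 6 against 6 libraries. Correlations used 100000 permutations, whose smallest p is 1e-05. Floors are 3 counts over the summed TMM-scaled library sizes of a group, with no confidence level attached. Members, relatives, marker lists and the libraries called apart were chosen with earlier results of these data known. The genes named are the members, their other arms, 4 relatives by sequence, and the 3 nearest non-members by Pearson r among miRNAs of at least 10 CPM.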

Additional observations from a re-analysis of the deposited data

Results flagged for a closer look

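Among 48 sets of 6 values (a member or ratio in a group), 11 held a single value farther from the other 5 than Dixon's 95% limit. The rate of about 1 in 20 by chance holds for independent sets. These sets overlap, since ratios reuse member values and the miR-196 pair varied together, so an excess over chance was not measured. Of the 11 values flagged, 6 were the miR-196 values of 3 eWAT libraries. miR-196a-5p was at 260.4 CPM in HFLF replicate 4, 469.6 CPM in HF replicate 1 and 813.4 CPM in LF replicate 4, and miR-196b-5p was at 155.7, 244.0 and 599.0 CPM in the same libraries. miR-10a-5p was low in 2 livers, with 2885 CPM in HF replicate 6 and 3100 CPM in LF replicate 4. Liver HFLF replicate 1 was high for miR-10b-5p, at 26.3 CPM, and for its ratio to miR-10a-5p, at 0.004651. eWAT HFLF replicate 2 had the ratio of miR-196a-5p to miR-196b-5p of 4.912, apart from the rest of its group.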

How the results depend on the processing

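No member was called between diet groups under any alternative run in a single tissue. With all 36 libraries in 1 fit, HF minus LF in liver called 1 member, miR-615-3p (adjusted p 0.0493785), on 33 counts in HF and 0 in LF, and 11 miRNAs in all, while HFLF minus HF in liver called 1 miRNA. In eWAT that fit called 13 miRNAs in HF minus LF and 30 in HFLF minus LF, and DESeq2 called 16 and 31, against 0 with edgeR per tissue. Leaving out single libraries gave 0 to 17 calls in HFLF minus LF. For the difference between tissues, HF over LF called 17 miRNAs by edgeR, 29 by DESeq2 (1 member, miR-615-3p), 6 with no filter and 1 without the 4 libraries that stood apart, and HFLF over LF called 13, 21 by DESeq2 and 0 without the 4. Leaving out single libraries gave 4 to 20 and 5 to 17. Without the 4 libraries the eWAT signs turned for HF over LF, to 0.01222 for miR-10a-5p, 0.09917 for miR-10b-5p, 1.791 for miR-196a-5p and 2.079 for miR-196b-5p. They also turned for HFLF over LF, to 0.1676, 0.1763, 0.9407 and 1.268, and the tissue difference of miR-10a-5p for HFLF over LF turned to 0.2649. The cause was not tested.

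Leaving out 1 library each gave for miR-196a-5p in eWAT -2.34 to 1.46 (HF over LF), -3.305 to 0.6228 (HFLF over LF) and -2.608 to 0.7062 (HFLF over HF), and for miR-196b-5p -2.587 to 1.955, -4.075 to 1.154 and -3.045 to 0.6524. miR-10b-5p ranged from -0.1451 to 0.04646 in eWAT (HFLF over LF) and from -0.1314 to 0.2456 in liver (HFLF over HF), where its ratio to miR-10a-5p ranged from -0.1372 to 0.2159. In eWAT minus liver all 7 members stayed called in LF and HFLF, and 6 or 7 in HF. Ratios past the threshold numbered 3 to 6. DESeq2 gave no adjusted p for miR-196b-5p.

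Deviations from the group means of same-numbered libraries correlated over 0.1 in 11 of 54 pairs (r from -0.323 to 0.324), and 13 of 54 correlated best with their own number. Only pairs across the tissues could share a mouse, and of these 0 of 6 in LF, 0 of 6 in HF and 1 of 6 in HFLF were over 0.1. Such correlations cannot show whether the mice were the same. With the replicate block 0 miRNAs were called in the difference between tissues for HF over LF or for HFLF over LF. In eWAT minus liver the block called 336 miRNAs in HFLF, 340 in HF and 319 in LF, all 7 members each time. miR-196a-5p and miR-196b-5p for HF over LF in eWAT turned to 0.2776 and 0.7047 with the block. For the ratios 0 passed, where 6 pairs allow no p under 0.03125.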
